A study of Arabidopsis thaliana with 12 samples.

Results

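Seedlings of the Arabidopsis line labelled AB were compared with seedlings of the line labelled SIZ1, on 3 arrays of each, which are 6 of the 12 arrays of the series. All 22746 probe sets that are not array controls were used, and AB and SIZ1 arrays were paired by the replicate number in their names. Both lines are T-DNA insertion knock-outs in the Columbia background, and the labels do not say which gene or genes AB lacks. COL is the untransformed wild type and served to show which of the lines departs from it. A further T-DNA knock-out line, SAB, whose name the labels do not explain, supplied 3 arrays to the estimate of the spread. The series set out to learn how ubiquitin-like proteases influence transcription.

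Seedlings of every line were untreated, at 23 °C in 100 µE of light, on medium after Murashige and Skoog to which Gamborg B5 is added. An age of 10 days is stated for AB 1 and AB 2, where every other sample has a harvest date instead. The RNA used per array averaged 739 ng in AB and 727 ng in SIZ1, against 751 ng in COL and 871 ng in SAB. Transcripts were measured on the Affymetrix ATH1 array, and the values are log2 expression levels, which ran from 2.02 to 13.21. Whether the 3 samples of a line were grown as separate cultures is not stated, so p-values rest on a spread between samples that may be partly technical.

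SUMO is a small protein that is joined to other proteins and changes their stability, partners or location. An activating enzyme and a conjugating enzyme hand SUMO on, and ligases such as SIZ1 promote its transfer to chosen targets, many of them nuclear. Proteases of the ULP type, among them SPF1 and SPF2, trim the SUMO precursor or cut SUMO from its targets again. Loss of SIZ1 in Arabidopsis is known for dwarf growth and raised salicylic acid defence.

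The SIZ1 transcript was low in the line of that name. SIZ1, the ligase gene, read 5.16, 5.45 and 5.18 in AB 1 to 3 and 2.50, 2.51 and 2.19 in SIZ1 1 to 3. In COL it read 5.6, 5.36 and 5.53, so AB lay near the wild type and SIZ1 near the bottom of the scale, with no overlap between AB and SIZ1. The difference was 2.86 ± 0.11 on the log2 scale (AB minus SIZ1, SE, n = 3 and 3), with an adjusted p of 0.000353 by limma. A second probe set of SIZ1, chosen after its values were seen, went the other way, with a mean of 3.14 in AB and 4.32 in SIZ1 (difference -1.18, adjusted p = 0.00184). The place of each probe set on the SIZ1 transcript was not analysed here.

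SPF1 (AT1G09730), a SUMO protease gene, was the other SUMO transcript that passed the test. It read 3.3, 2.80 and 3.42 in AB, 4.22, 4.29 and 4.35 in SIZ1, and 4.80, 4.75 and 4.74 in COL. AB was therefore lowest, with SIZ1 between AB and COL and no overlap among the lines. SPF1 was lower in AB than in SIZ1 by 1.12 ± 0.14 (adjusted p = 0.00555, limma) and lower than in COL by 1.59 (adjusted p = 0.0106), while its SIZ1 value lay 0.48 below COL without passing the test (difference -0.48, adjusted p = 0.104). Of the 20 loci listed for the SUMO pathway, 6 were measured, meaning that a probe set names them alone: 1 was higher in AB, 1 lower and 4 did not pass. Those 4 were SAE1A of the activating enzyme (difference -0.34, adjusted p = 0.11) and the protease genes SPF2 (AT4G33620, 0.01), ULP1B (0.03) and FUG1 (AT3G48480, -0.02), the last 3 of them close to the bottom of the scale in every line. For the whole array, 3.06% of the 13333 named loci were called higher in AB and 3.45% lower.

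**Figure D1:**
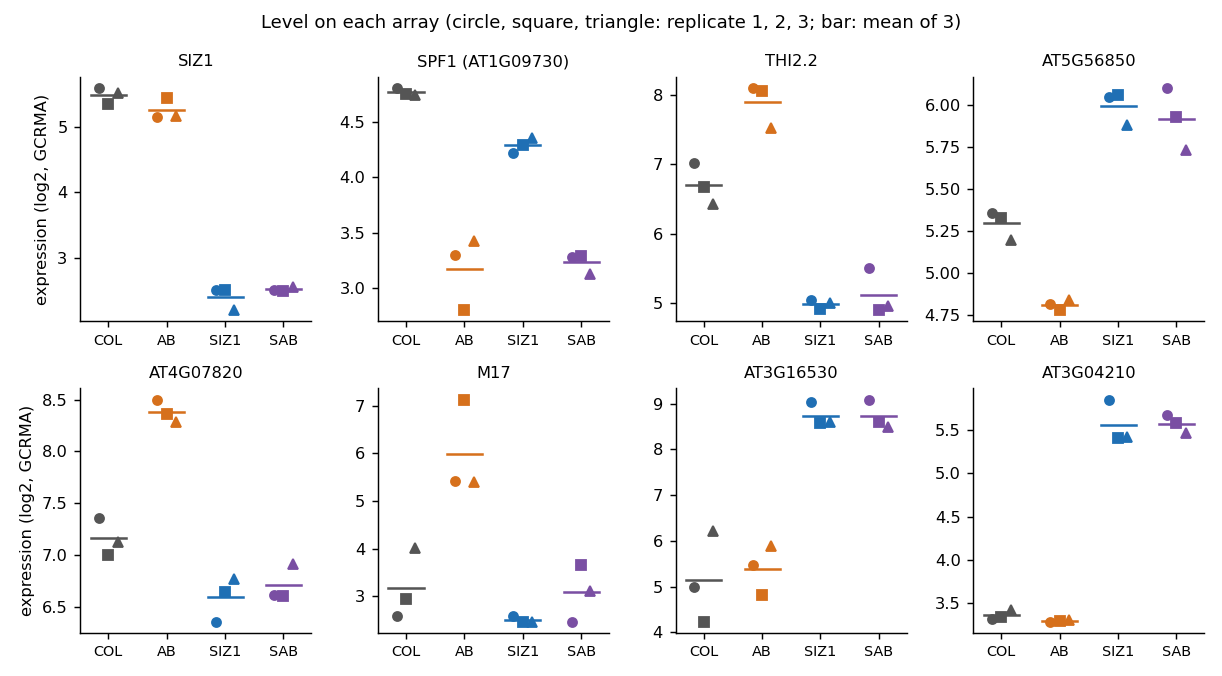
Log2 expression of 8 genes on each of the 12 arrays, by line. Symbols stand for replicates 1, 2 and 3 and bars for the mean of 3. SIZ1 is low in SIZ1 and SAB, SPF1 is lowest in AB and SAB, THI2.2 and AT5G56850 lie on opposite sides of COL in AB and SIZ1, and vertical scales differ between panels.

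AB and SIZ1 differed in 1745 probe sets at an adjusted p under 0.05, which is 7.67% of those tested. AB was the higher in 781 (3.43% of all) and the lower in 964 (4.24% of all). The median difference over all probe sets was 0.01, and the middle 50% of them lay between -0.08 and 0.07. A difference of at least 1 on the log2 scale was reached by 86 calls that were higher in AB and 122 that were lower. All 1745 calls had 3 paired differences of one sign, as had 57.3% of all probe sets, and in 91.9% of the calls the AB and SIZ1 values did not overlap, as in 41.6% of all. Against COL, 1167 probe sets passed in SIZ1 (5.13%) and 74 in AB (0.325%). The 1167 became 461 and 378 without SIZ1 1 and SIZ1 2, 528 and 609 without COL 1 and COL 2, 732 with no replicate block and 629 without the SAB arrays. The 74 became 19, 25 and 44 without AB 1, 2 and 3, 45 without SIZ1 2, 29, 25 and 23 without COL 1, 2 and 3, 14 with no replicate block and 1 without the SAB arrays. Centring each array on its median turned the split of the AB against SIZ1 calls, to 1098 higher and 896 lower, and quantile normalization gave 776 and 767. The count of calls between AB and SIZ1 fell to 712 without AB 1, 679 without AB 2, 772 without SIZ1 1 and 724 without SIZ1 2, and to 1002 without the SAB arrays. No probe set passed with the 6 AB and SIZ1 arrays alone, where 4190 had an unadjusted p under 0.05 by limma.

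Of the calls that could be placed against COL, most were placed in SIZ1. Of the 1745 calls, 801 (45.9%) also passed for SIZ1 against COL and not for AB, with a median departure from COL of 0.55 in SIZ1 and 0.09 in AB. AB alone passed against COL in 42 (2.41%), where the median departure was 0.62 in AB and 0.12 in SIZ1. Both lines passed in 10 probe sets, 6 of them in opposite directions and 4 in one direction. In the other 892 (51.1%) neither line passed against COL, although the lines passed against each other. There the median departures were nearly equal, 0.22 in AB and 0.24 in SIZ1, and the COL mean lay between the AB and SIZ1 means in 846 of the 892. That position is favoured by how this class is made, since 2 small departures add up to a large difference only when they point apart. Over all 22746 probe sets the COL mean lay between them in 44.6%. P-values were adjusted within each comparison, so AB, with fewer calls against COL, needed a smaller unadjusted p to pass than SIZ1. AT2G29500 differed from COL in AB by 0.58 ± 0.10 and did not pass (adjusted p = 0.0826, limma). COR47 differed from COL in SIZ1 by -0.38 ± 0.08 and passed (adjusted p = 0.0347, limma). The split of 801 and 42 therefore depends in part on these unequal cuts.

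**Figure D2:**
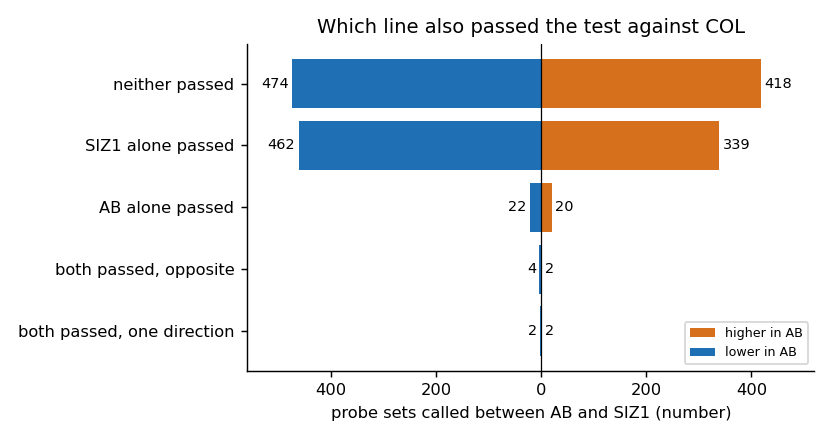
Number of probe sets called between AB and SIZ1, split by which line also passed the test against COL. Bars to the right are higher in AB and bars to the left lower in AB, and the long bars are the 892 with neither line passing and the 801 with SIZ1 alone.

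The comparisons of AB and of SIZ1 against COL share the COL arrays, so the placing rests on 3 wild-type values. A stricter description needs no test: the 3 COL values lay wholly between the 3 AB and the 3 SIZ1 values in 207 of the 1745 calls (11.9%), against 1.17% of all probe sets. That position requires AB and SIZ1 values that do not overlap, which the calls favour, so part of this gap follows from their choice. Among probe sets without overlap it was found in 207 of 1604 calls and in 265 of 9464 over the whole array. COL lay wholly between the lines in 64 of the calls placed in SIZ1 alone, 7 of those in AB alone and 134 of those with neither line passing. The number placed in AB alone fell from 42 to 11 with no replicate block, to 12 without AB 1, 10 without AB 2, 26 without SIZ1 1 or SIZ1 2, 27 without AB 3, 20, 14 and 12 without COL 1, 2 and 3, and to 0 without the SAB arrays. Calls placed in SIZ1 alone ranged from 275 without SIZ1 2 to 908 without SIZ1 3, and were 325 without SIZ1 1, 405 and 411 without AB 1 and AB 2, and 417 and 440 without COL 1 and COL 2.

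**Figure D3:**
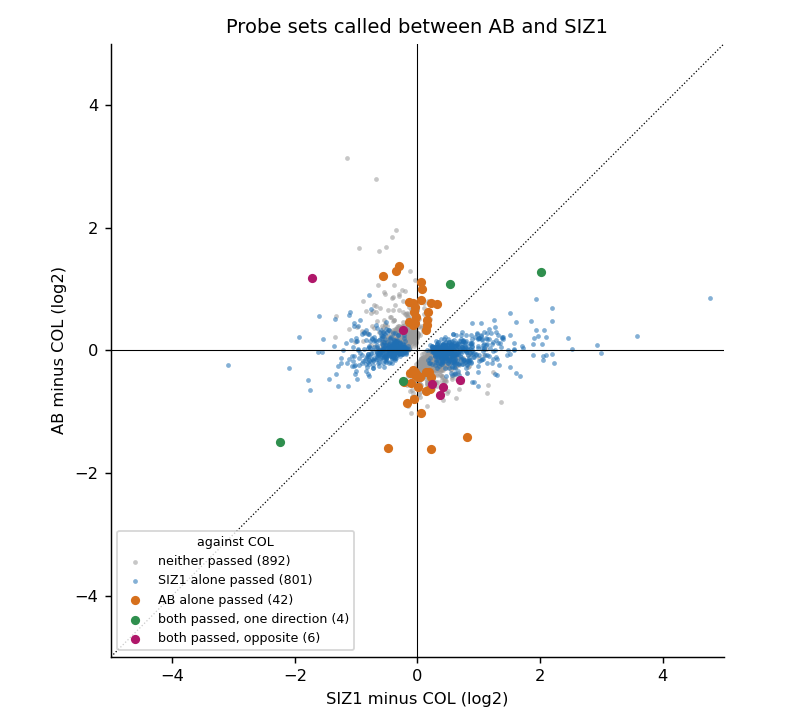
Each point is one of the 1745 probe sets called between AB and SIZ1, by its difference from COL in SIZ1 (horizontal) and in AB (vertical), both log2. The 801 blue points spread along the horizontal axis, the 42 orange points along the vertical one, and the 6 purple points lie in the quadrants of opposite direction; the dotted line marks equal change.

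The 6 probe sets that passed in opposite directions included 2 named genes. THI2.2, a thionin of the jasmonate and ethylene defence list, read 8.09, 8.05 and 7.52 in AB, 7.01, 6.67 and 6.43 in COL, and 5.05, 4.92 and 5.01 in SIZ1. Every AB value was above every COL value, and every COL value above every SIZ1 value. THI2.2 was 7.45-fold higher in AB than in SIZ1 (2.90 ± 0.14, adjusted p = 0.000376), from a rise of 1.18 over COL in AB (adjusted p = 0.0265) and a fall of 1.71 in SIZ1 (difference -1.71, adjusted p = 0.0019). AT5G56850 ran the other way, at 4.82, 4.78 and 4.84 in AB, 5.36, 5.33 and 5.2 in COL, and 6.05, 6.06 and 5.88 in SIZ1. Here too the lines did not overlap, and AB was lower than SIZ1 by 1.18 ± 0.07 (adjusted p = 0.00044).

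The remaining 4 of these 6, named by probe set because the annotation gives them no gene, were chosen after their values were seen. In 247109_at, 246238_at and 253088_at AB was lower than SIZ1, by 1.09, 1.01 and 0.80, and in 250000_at AB was higher by 0.57. Their COL values overlapped those of AB or of SIZ1. The set of 6 was empty with no replicate block, without SIZ1 2, without COL 2, without COL 3 and without the SAB arrays, and held 2 without AB 1, AB 2, SIZ1 1 or COL 1. It held 16 when only the brighter probe sets were tested. The difference of each of the 6 between AB and SIZ1 passed with each array left out in turn, but with no replicate block those of 246238_at (adjusted p = 0.0844) and 250000_at (adjusted p = 0.0909) did not.

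In one direction from COL, both lines passed in 4 probe sets, and the lines differed in size. AT3G44970, a cytochrome P450 gene, read 5.57, 5.0 and 5.34 in AB, 6.33, 5.88 and 5.92 in SIZ1, and 4.09, 3.77 and 4.23 in COL. It rose in both lines, by 1.27 in AB and 2.01 in SIZ1. AT1G52100, a jacalin-type lectin gene, rose by 1.09 in AB and 0.53 in SIZ1, and AT2G38780 fell by 0.49 and 0.24. The unnamed 250199_at, chosen after its values were seen, fell by 1.5 in AB and 2.25 in SIZ1. AB differed from SIZ1 in AT3G44970 by -0.74 (adjusted p = 0.0136), a call that ended without AB 1, AB 2, SIZ1 1 or SIZ1 2 (adjusted p up to 0.0621) and with no replicate block (0.0764). The calls of AT2G38780 and 250199_at also ended without AB 1, AB 2, SIZ1 1 or SIZ1 2, with adjusted p up to 0.133 and 0.0798. So did AT2G38780 without COL 2 and 250199_at without AB 3. With no replicate block none of the 4 passed (AT1G52100 0.194, AT2G38780 0.175 and 250199_at 0.324 as adjusted p), and the AB and SIZ1 values of 250199_at overlapped.

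Among the calls placed in AB alone that name 1 gene and pass the naming rule, the largest difference was that of AT4G07820, which encodes a secreted protein of the PR-1-like family. It read 8.50, 8.36 and 8.28 in AB, 6.36, 6.65 and 6.77 in SIZ1, and 7.36, 7.0 and 7.13 in COL. COL lay between the lines without overlap, and AB exceeded SIZ1 3.44-fold (1.78 ± 0.14, adjusted p = 0.00131). The rise over COL in AB was 1.22 (adjusted p = 0.0265), and SIZ1 lay below COL without passing (-0.57, adjusted p = 0.0656). SPF1, described above, was next among the named genes.

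The other named genes of the AB group, apart from AT5G64816, lay within 0.14 of COL in SIZ1. Higher in AB than in SIZ1 were AT2G16005, of the MD-2-related lipid recognition family (1.06), AT1G33790, a jacalin-type lectin gene (0.93), CSLC04, a synthase of the xyloglucan backbone (0.86), and AT5G37990, of the SABATH methyltransferase family (0.76). For these 4 SIZ1 lay between 0.08 below and 0.08 above COL (differences -0.08 to 0.08). AT1G67750, a pectate lyase-like gene, was lower in AB than in SIZ1 (-0.81), as was AT5G64816 (-0.65), with SIZ1 above COL by 0.14 and 0.22. All COL values of AT5G64816 lay between those of AB and SIZ1. It stood at -0.43 from COL in AB, and its SIZ1 departure narrowly missed the test (adjusted p = 0.0515, limma). AT1G33790 read 3.91, 4.30 and 3.99 in AB and 3.05, 3.19 and 3.16 in SIZ1, without overlap. All 7 of these calls between AB and SIZ1, AT4G07820 among them, held with each array left out in turn. Whether each gene kept its placing in AB alone, which also needs the test against COL, is not given. That class fell from 42 to 12 without AB 1, 10 without AB 2 and 0 without the SAB arrays.

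SAB took no part in the choice of the calls other than through the estimate of the spread, so its level is a separate measurement. In 1600 of the 1745 calls (91.7%) the SAB mean lay nearer to SIZ1 than to AB, against 50.2% of all probe sets. The same held for 744 of the 801 calls placed in SIZ1 alone and for all 6 of opposite direction. For the 42 placed in AB alone the count was 40, but these were chosen because AB stood away from both COL and SIZ1, so a line that was not chosen on would tend to lie nearer SIZ1. The exceptions among the 42 were SPF1, at 3.17 in AB, 3.23 in SAB and 4.29 in SIZ1, and the unnamed 258612_at, at 3.43, 3.45 and 3.67. No p-value is given for these counts, since probe sets are not independent.

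The largest excess in AB over SIZ1 among the named genes was that of M17. M17, a late embryogenesis abundant gene, read 5.42, 7.13 and 5.40 in AB, 2.59, 2.47 and 2.47 in SIZ1, and 2.59, 2.94 and 4.02 in COL. AB stood 11.1-fold above SIZ1 (3.48 ± 0.48, adjusted p = 0.00801), the AB values were also above all COL values, and COL overlapped SIZ1. Neither line passed against COL for M17 (AB 2.80, adjusted p = 0.0767; SIZ1 -0.67, adjusted p = 0.564). AT2G28490, of the cupin family that includes seed storage proteins, AT2G21820, a seed maturation protein gene, and LEA18, a late embryogenesis abundant gene, were higher by 2.2, 1.5 and 1.48, again with neither line passing against COL. BGLU19, a beta-glucosidase gene, was higher by 2.63.

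Of these, M17 and AT2G21820 held with each array left out. The call of AT2G28490 ended without AB 1, AB 2, SIZ1 1 or SIZ1 2 (adjusted p up to 0.0642), and that of BGLU19 without any single AB or SIZ1 array except AB 3, and without COL 2 (up to 0.124). LEA18 passed only with SIZ1 3 among the left-out arrays (up to 0.152). Grouped by symbol after the values were seen, 20 BGLU genes held 1 higher in AB (BGLU19) and 3 lower (BGLU15, BGLU44 and BGLU45). The 4 genes with an LEA symbol held 2 higher (LEA18 and AtLEA4-1) and 0 lower. AtLEA4-1 was higher by 0.94, a call that ended without any single AB array, SIZ1 1, SIZ1 2 or COL 3 (up to 0.114). Over all named loci, 3.06% were called higher and 3.45% lower. Late embryogenesis abundant genes without such a symbol, picked after their values were seen, went both ways. AT3G17520 was higher in AB by 1.45 (adjusted p = 0.025, limma). AT2G46140 was lower (-1.45, adjusted p = 0.0159, limma), with SIZ1 alone departing from COL. Both calls ended without AB 1, AB 2, SIZ1 1 or SIZ1 2 (up to 0.0984 and 0.0687). LEA4-5, of the abscisic acid list, did not pass (0.37, adjusted p = 0.234). No seed reserve locus of the fixed list was measured under its own name. The largest difference of all was 4.29, in the unnamed 249082_at, with 8.59, 7.53 and 7.98 in AB and 4.40, 2.54 and 4.28 in SIZ1. Its COL values ran from 3.0 to 7.23, overlapping SIZ1 but below all AB values, and the call ended without any single AB or SIZ1 array except AB 3, and without COL 2 (up to 0.15). It also ended with no replicate block (adjusted p = 0.0655), without the SAB arrays and under quantile normalization.

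Where SIZ1 alone departed, the AB excess was a loss in SIZ1. AT5G22580, of the stress-responsive A/B barrel family, read 6.27, 6.65 and 6.77 in AB, 4.65, 4.71 and 3.88 in SIZ1, and 5.93, 6.56 and 6.55 in COL. AB overlapped COL, and SIZ1 was below both lines, by 2.15 ± 0.27 from AB (adjusted p = 0.0059). AT1G62510, a lipid-transfer type protein gene, AT1G70880, of the Bet v 1 family, and ZW9, a TRAF-like gene, were higher in AB by 1.81, 1.59 and 1.53, while AB lay within 0.29 of COL (-0.29, -0.03 and -0.02). The calls of these 4 genes between AB and SIZ1 held with each array left out in turn.

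Of the 964 probe sets lower in AB, 462 were placed in SIZ1 alone and 474 had neither line passing against COL. AT3G16530, a legume-type lectin gene, read 5.47, 4.81 and 5.88 in AB, 9.03, 8.57 and 8.61 in SIZ1, and 5.0, 4.23 and 6.22 in COL. AB and COL overlapped, and AB was 10.2-fold below SIZ1 (-3.35 ± 0.39, adjusted p = 0.0045). AT3G04210, a TIR-NBS gene of the immune receptor type, read 3.29, 3.3 and 3.31 in AB and 5.85, 5.41 and 5.42 in SIZ1. Its COL values, 3.32 to 3.43, lay just above those of AB, and the difference between the lines was -2.26 ± 0.10 (adjusted p = 0.000376).

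Of the 12 largest named differences in this direction, 11 fell in SIZ1 alone. They took in AT1G72800 (-2.84), AT1G27030 (-2.44), AT5G03350, a second legume-type lectin gene (-1.93), AT2G18210 (-1.88), AT1G08230, the GABA transporter GAT1 (-1.79), AT1G10990 (-1.79), AT2G19970, of the PR-1-like family (-1.74), AT2G37870, of the lipid-transfer type (-1.74), and AT1G19960 (-1.72). AB lay within 0.47 of COL in all 11. The twelfth was BCAT4, the aminotransferase that starts methionine chain elongation for glucosinolates (-1.71, adjusted p = 0.0202), with neither line passing against COL. The calls of AT5G03350 and BCAT4 ended without AB 1, AB 2, SIZ1 1 or SIZ1 2 (adjusted p up to 0.0934 and 0.0826), that of AT1G10990 also without SIZ1 3 (up to 0.0796), and that of AT1G19960 without AB 1 or SIZ1 1 (up to 0.059) and with no replicate block. Further large differences in this direction were those of the unnamed 256766_at (-3.91), 252265_at (-3.04) and 248353_at (-2.50), all in SIZ1 alone.

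**Figure D4:**
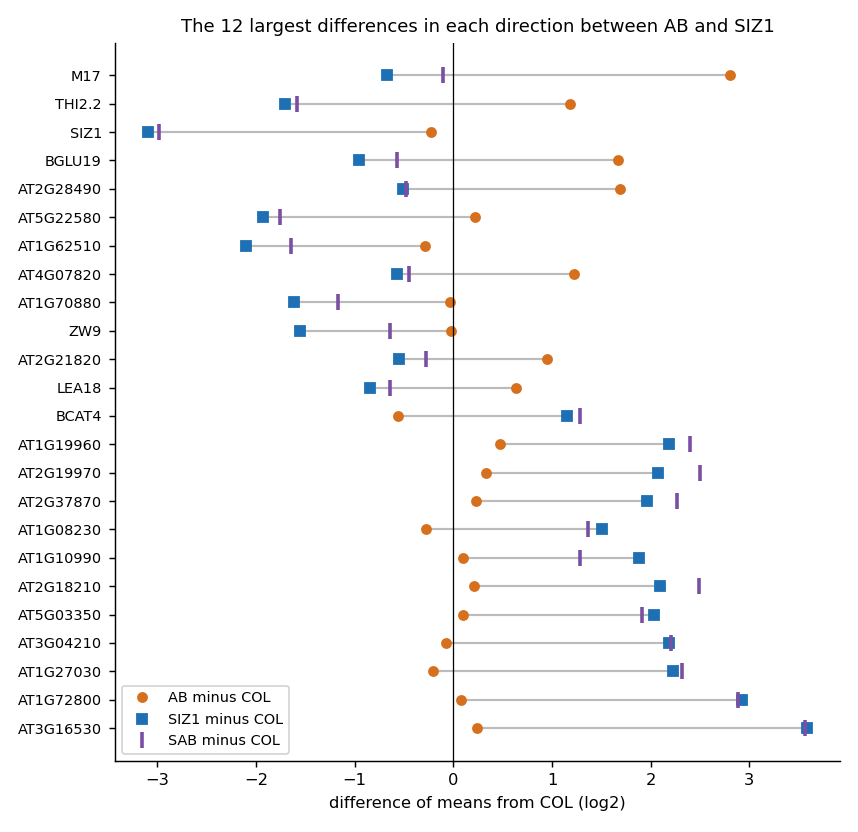
Difference from COL (log2) in AB, SIZ1 and SAB for the 12 named genes with the largest difference between AB and SIZ1 in each direction. In the lower 11 genes the AB points sit within 0.47 of COL and the SAB marks lie nearer the SIZ1 squares than the AB circles; in ZW9, among the upper 12, SAB lies nearer AB.

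A few more genes of related function were picked after their values were seen. UGT76B1, a glucosyltransferase that acts on salicylic acid and isoleucic acid, was lower in AB than in SIZ1 (-1.70, adjusted p = 0.00044). So was AT1G26380, an oxidase gene of indolic defence compounds (-1.70, adjusted p = 0.0127, above the threshold without AB 1 at 0.0583). Both were placed in SIZ1 alone, with SIZ1 above COL by 1.29 and 1.91, and AB at -0.41 and 0.20 from COL. ARPN, a plantacyanin gene, was higher in AB by 1.46 (adjusted p = 0.00398), with all COL values between the lines. BZIP60, a transcription factor of the unfolded protein response, was higher by 0.52 (adjusted p = 0.00907), a call that ended with no replicate block (adjusted p = 0.325). The 4 jacalin-type lectin genes with a JAL symbol moved both ways, with 2 called higher in AB and 1 lower. JAL33 and JAL34 were higher by 0.26 each, and JAL22 was lower (-0.95, adjusted p = 0.00278, limma), with SIZ1 alone departing from COL (0.99). Over all named loci, 3.06% were called higher and 3.45% lower. The salicylic acid and EDS1-PAD4 list had 4 of 26 loci measured, and none passed: GRX480 0.27, EDS1B (AT3G48080) 0.03, SAG101 -0.07 and WRKY53 -0.15. All 4 had means under the overall median (3.51) in both lines, where changes are understated, so a lack of difference cannot be read from them. PR1, PR2 and PR5 were not measured under their own names. In the jasmonate and ethylene list THI2.2 was the 1 of 4 that passed, as higher in AB, where 3.06% of all named loci did. PDF1.2 at -0.54 and PDF1.2b at -0.42 did not pass. THI2.1, at 0.02, was close to the bottom of the scale in every line.

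Cell wall genes moved both ways. In the cell wall loosening list, with 6 of 16 loci measured, 1 was higher in AB, 2 were lower and 3 did not pass, where 3.06% of all named loci were called higher and 3.45% lower. The median difference was -0.04, against 0.02 over all named loci. XTH20, a xyloglucan endotransglucosylase, read 2.64, 2.73 and 2.93 in AB, 4.47, 4.23 and 3.99 in SIZ1, and 2.64 to 2.88 in COL. It was raised in SIZ1 alone, and AB was lower by 1.47 ± 0.18 (adjusted p = 0.00526). EXPA8, an expansin, was higher in AB by 1.35 (adjusted p = 0.00897) with neither line passing against COL, and its call ended with no replicate block (adjusted p = 0.0943). EXPA4 was lower in AB by 0.74 (adjusted p = 0.0297), with SIZ1 alone departing from COL (0.78). That call ended without any single AB or SIZ1 array and without COL 3 (up to 0.113). Grouped by symbol after the values were seen, 18 expansins held 2 higher (EXPA8, EXLA1) and 3 lower (EXPA4, EXPA9, EXPB3), and 9 XTH genes held 1 higher (XTH32) and 2 lower (XTH16, XTH20). The calls of EXLA1 and EXPB3 ended without any single AB or SIZ1 array (adjusted p up to 0.0842 and 0.170), and that of EXPB3 also without COL 2 or COL 3. XTH32 ended without AB 2, AB 3, any single SIZ1 array, COL 2 or COL 3 (up to 0.144), and XTH16 without AB 1, AB 2 or SIZ1 2 (up to 0.0614). EXLA1 (0.237) and XTH32 (0.0769) also lost the call with no replicate block.

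Other lists gave 1 or 2 members that passed, where 3.06% of all named loci were called higher in AB and 3.45% lower. GI, a clock and flowering regulator and the 1 clock gene measured of 17, was higher in AB by 0.71 (adjusted p = 0.0224) and lower in SIZ1 than in COL by 0.95 (difference -0.95, adjusted p = 0.0109). The dehydrin COR47 (0.37, adjusted p = 0.0287) was the 1 of 4 cold genes that passed, with SIZ1 alone departing from COL (-0.38). The small heat shock gene HSP17.6B (AT2G29500, 0.59, adjusted p = 0.0177) was the 1 of 4 heat shock genes, with neither line passing against COL. CCS, the copper chaperone of superoxide dismutase, was higher in AB by 0.71 (adjusted p = 0.00929), with SIZ1 below COL by 0.89 (-0.89). SWEET2, a vacuolar sugar transporter, was lower in AB by 1.23 (adjusted p = 0.0196), with SIZ1 alone departing from COL (1.35). IAA29, an auxin response repressor, was lower by 0.45 (adjusted p = 0.0281), with neither line passing against COL.

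In the glucosinolate list, 2 of 3 measured genes were called lower in AB and 0 higher, where 3.45% of all named loci were called lower. They were BCAT4, given above, and UGT74C1 (AT2G31790), a glucosinolate glucosyltransferase, at -0.43 (adjusted p = 0.0422). UGT74B1 did not pass (-0.34). GAPC2, a cytosolic glycolytic enzyme kept as a reference gene, passed at -0.50 (adjusted p = 0.00479), with SIZ1 alone departing from COL (0.54). Of the 4 nuclear photosynthesis genes, LHCB4.2 (0.50, adjusted p = 0.0346) and LHCB4.1 (0.13, adjusted p = 0.0456) were higher in AB than in SIZ1. They encode an antenna protein of photosystem II, and 3.06% of all named loci were called higher. Both were placed in SIZ1 alone, at -0.84 and -0.19 from COL in SIZ1, and AB also lay below COL, at -0.33 and -0.06. Of the list members from GI to LHCB4.1, CCS and GAPC2 alone held with each array left out. GI, COR47, HSP17.6B and IAA29 ended without AB 1, AB 2 or SIZ1 2 (adjusted p up to 0.0917, 0.114, 0.0746 and 0.0939), the first 3 also without SIZ1 1, and IAA29 without AB 3 or SIZ1 3. SWEET2 ended without AB 2 or SIZ1 2 (up to 0.0667). UGT74C1 ended without any single AB or SIZ1 array, COL 2 or COL 3 (up to 0.156), LHCB4.2 without those of AB, SIZ1 1, SIZ1 2 or COL 2 (up to 0.133), and LHCB4.1 without any one AB, SIZ1 or COL array (up to 0.176). UGT74C1, LHCB4.2 and LHCB4.1 also lost the call with no replicate block. No member passed in the flavonoid list (3 measured), the abscisic acid list (1) or the cell cycle list (1). Among these, UGT78D2 alone had means above the overall median (3.51) in AB and SIZ1.

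**Figure D5:**
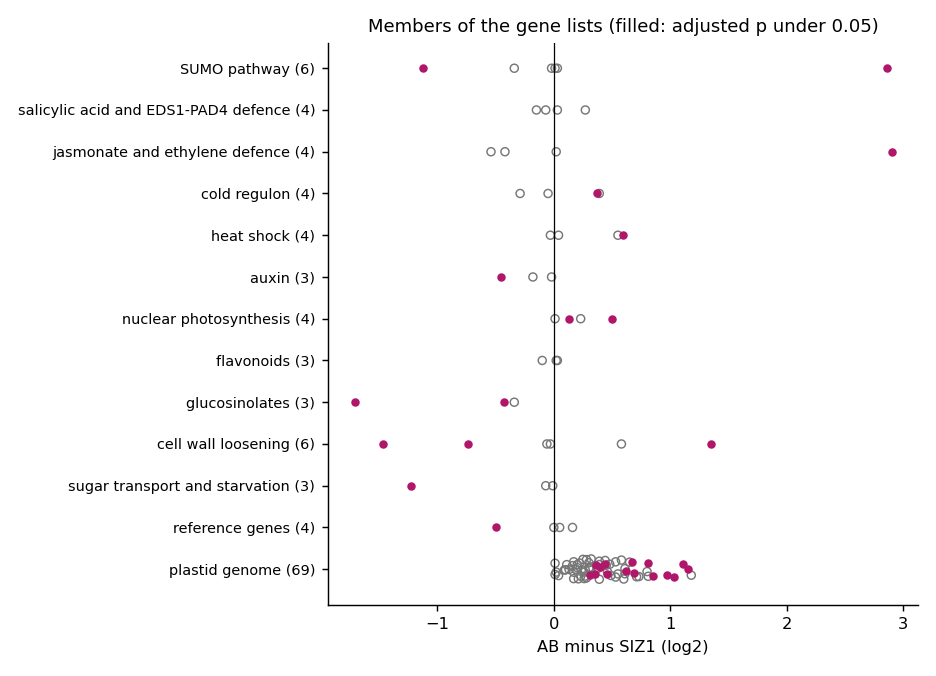
Difference between AB and SIZ1 (log2) for every measured member of the lists with at least 3 measured members, the number in brackets. Filled points passed at an adjusted p under 0.05; all 69 plastid genes lie to the right of 0, and the cell wall loosening list has filled points on both sides.

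Of the 69 measured genes of the plastid genome, 15 passed as higher in AB and none as lower, where 3.06% and 3.45% of all named loci passed. The difference was above 0 in all 69, from 0.01 to 1.18, with a median of 0.36 against 0.02 over all named loci. In 59 of them all 3 pairs were positive, and 57.3% of all probe sets had 3 pairs of one sign, positive or negative. Their mean level was 7.94, 7.68 and 7.90 in AB, 7.57, 7.39 and 7.28 in SIZ1, and 7.71, 7.76 and 7.84 in COL. SIZ1 lay below every other value of these 3 lines, while AB and COL overlapped. The median departure from COL was 0.06 in AB and -0.30 in SIZ1. Among those that passed were ndhK (1.15, adjusted p = 0.0201) and ndhJ (0.97, adjusted p = 0.0302) of the NADH dehydrogenase-like complex, and psbC (1.11, adjusted p = 0.0288) and psbT (1.03, adjusted p = 0.0339) of photosystem II. The number that passed ranged from 2 without AB 1 or SIZ1 2 to 14 without COL 1, and was 3 without AB 3, 5 without SIZ1 3, 7 without SIZ1 1, 9 without COL 2 and 10 without COL 3. The median stayed between 0.29 and 0.45 with each array left out.

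Control probe sets moved with this contrast as well. The 24 poly-A control probe sets, which read RNAs added to the sample, were all higher in AB than in SIZ1, with means of 4.67 and 4.04 against 4.45 in COL. The 18 hybridization controls averaged 8.42 in AB and 7.89 in SIZ1, and SIZ1 3 stood apart at 7.17, where the other arrays of the 3 lines lay between 8.06 and 8.61. The excess of the 3′ over the 5′ probe set of GAPDH averaged 2.56 in AB and 2.31 in SIZ1, and that of actin 2.55 and 2.60. The part of these in the plastid difference and in the calls was not tested. Without SIZ1 3, 1657 probe sets were called between the lines, 1218 of them among the 1745.

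Markers of organs and cell types gave no call. The 3 measured root markers averaged 3.47 to 3.78 over the AB arrays and 3.63 to 3.79 over the SIZ1 arrays, and the 3 markers of the guard cell lineage 3.01 to 3.02 and 2.93 to 3.0. EXPA7, EXPA18, SPCH and MUTE among them were close to the bottom of the scale. These averages therefore rest mainly on PER57 (5.45 in AB, 5.83 in SIZ1) and FAMA (4.16 and 4.05), and say little of tissue makeup. The meristem marker CLV3 was at 2.30 to 2.32 and 2.28 to 2.31, near the bottom of the scale, and RCA of mesophyll at 12.11 to 12.29 and 12.05 to 12.27. No vasculature or epidermis marker was measured under its own name. In whole seedlings, fewer cells of a type and less RNA per cell cannot be told apart.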

How the data were processed

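The authors deposited 1 log2 expression level per probe set and array. The submitters' processing notes name GCRMA, with no version; it models background from probe sequence, equalises the arrays and combines the probes of each set. Dim probe sets are drawn to a floor, so changes there are understated. The log2 scale was read from the range of the values, and array medians ran from 3.45 to 3.52. The tests leave out the 64 controls.

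Tests used limma 3.58.1 under R 4.3.3 (lmFit, eBayes, two-sided, Benjamini-Hochberg over 22746 probe sets within each comparison). All 12 arrays entered 1 model with genotype and replicate number as a block, leaving 6 residual degrees of freedom. Pairing by replicate number was part of the plan, with a fit without the block as an alternative. In a check on the same data, all 18 same-numbered pairs of arrays deviated together from their genotype means. Their correlations were 0.102 to 0.451 (0.158 to 0.356 for AB with SIZ1). The other 36 pairs had a median of -0.126. That is not separate evidence, since deviations from a genotype mean cancel out and so push these pairs to negative values. Alternatives changed the block, the arrays fitted, the scaling, a brightness filter, the prior or an RNA covariate, or left out 1 array. The script was checked on simulated data.

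A platform annotation table, updated through RefSeq (TAIR10.1), named 1 gene for 13513 probe sets, several for 503 and none for 8730. Of the 1745 calls, 871 name 1 gene. Where several probe sets name 1 locus, lists use the brightest on average. The named genes were the 12 largest differences each way among called probe sets that name 1 gene, do not overlap between AB and SIZ1 and reach the overall median (3.51) in AB or SIZ1; up to 12 of opposite direction; up to 8 of AB alone and of one direction; the SUMO genes; up to 4 called members per list; and 4 unnamed probe sets. The members and lists were chosen with earlier results of these data known. The plastid list was taken by RefSeq chromosome; mitochondrial genes and promoter motifs were not analysed here.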

Additional observations from a re-analysis of the deposited data

How the results depend on the processing

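Each of the 77 called differences compared here kept its direction under every alternative that tested it. That could hardly be otherwise. Changes of the block, the brightness filter or the prior, and leaving out COL or SAB arrays, keep the difference of means the same by construction. Every call also had 3 paired differences of one sign, so leaving out 1 AB or SIZ1 array could scarcely turn it. Of the 77, 8 are too dim for the fit of brighter probe sets. Leaving aside the fit of the 6 AB and SIZ1 arrays alone, 38 passed in each fit that tested them, 43 passed with each array left out in turn, and 16 lost the call with no replicate block. In that 6-array fit the count of calls was 0, with 0 higher and 0 lower. With no replicate block the calls were 1187, 466 higher and 721 lower; 14 passed for AB against COL, 732 for SIZ1 against COL, 502 in SIZ1 alone, 11 in AB alone, 0 in opposite directions and 1 in one direction. Without the SAB arrays the calls were 1002, 467 higher and 535 lower, with 1 for AB against COL, 629 for SIZ1 against COL, 435 in SIZ1 alone, 0 in AB alone, 0 opposite, 1 in one direction and 566 with neither. Median centring gave 115 for AB against COL and 70 in AB alone. Testing only the brighter probe sets gave 188 for AB against COL, 103 in AB alone, 16 opposite and 9 in one direction, from fewer probe sets tested. Quantile normalization gave 8 in one direction, and an intensity trend 7. The RNA amount as covariate gave 2180 calls, 9 opposite and 6 in one direction.

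With 1 array left out, calls ranged from 679 to 1781 (291 to 792 higher, 374 to 989 lower), AB against COL from 19 to 77, SIZ1 against COL from 378 to 1296, SIZ1 alone from 275 to 908, AB alone from 10 to 43, opposite from 0 to 7, one direction from 0 to 6, and neither from 254 to 1339. The causes were not tested. Dim probe sets are limited by the floor: 103 of the 1745 calls lay under the overall median in both lines.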
